A study of Mus musculus with 9 samples.

Results

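The SLC25 family comprises the solute carriers of the inner mitochondrial membrane, and 46 of the 28481 genes in the deposited table were chosen as its members because they were annotated as protein-coding and carried a symbol beginning with Slc25a and a number. The RNA came from mouse epididymal white fat, an abdominal depot of male mice. The groups were 5 libraries labelled Control and 4 labelled UBKO, whose genotype is given as a Ctnnb1 knockout driven by Ucp1-cre. Ctnnb1 encodes beta-catenin, through which Wnt signals reach TCF/LEF transcription factors. Every library, Control included, came from tissue treated with CL316,243, an agonist of the beta3-adrenergic receptor that drives lipolysis and heat production in fat, so no comparison here is against untreated fat. The Ucp1 promoter directs the Cre recombinase to adipocytes that express Ucp1, and the other cells of the tissue are not its target. The alleles of the Control animals, the age of the animals and the dose are not given in the labels, nor do they say that each library came from its own animal, so p-values here reflect only how these libraries spread, part of which may be technical.

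SLC25 proteins share a fold of tandem repeats and move nucleotides, phosphate, carboxylates, amino acids, cofactors and metals between the cytosol and the mitochondrial matrix. In fat they connect the respiratory chain to the cytosol, and they carry out the citrate from which fatty acids are made and carry in the acyl groups that are burnt. The uncoupling proteins belong to the same family under other symbols.

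Of the 46 members, 41 had enough counts to be tested. Slc25a1, Slc25a16, Slc25a22, Slc25a32, Slc25a35 and Slc25a48 rose in UBKO fat and Slc25a24 fell, in a quasi-likelihood test (edgeR) adjusted by Benjamini-Hochberg over all 16123 genes tested, at 0.05. Across those genes 3.88% were called higher and 7.56% lower. The median log2 difference of the 41 carriers was 0.18 (UBKO minus Control), beside -0.005 for all genes tested. Log2 differences were positive for 25 carriers and negative for 16. Levels are given as TMM-scaled CPM (counts relative to the library's total) within a gene, and as FPKM, which also divides by gene length, between genes. When libraries were scaled by total counts, the median of all genes went to -0.39 and that of the carriers to -0.19, which left 4 carriers called higher (Slc25a1, Slc25a22, Slc25a35 and Slc25a48) and 4 lower (Slc25a4, Slc25a11, Slc25a24 and Slc25a28), where 1.46% of all genes were called higher and 27.8% lower.

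**Figure D1:**
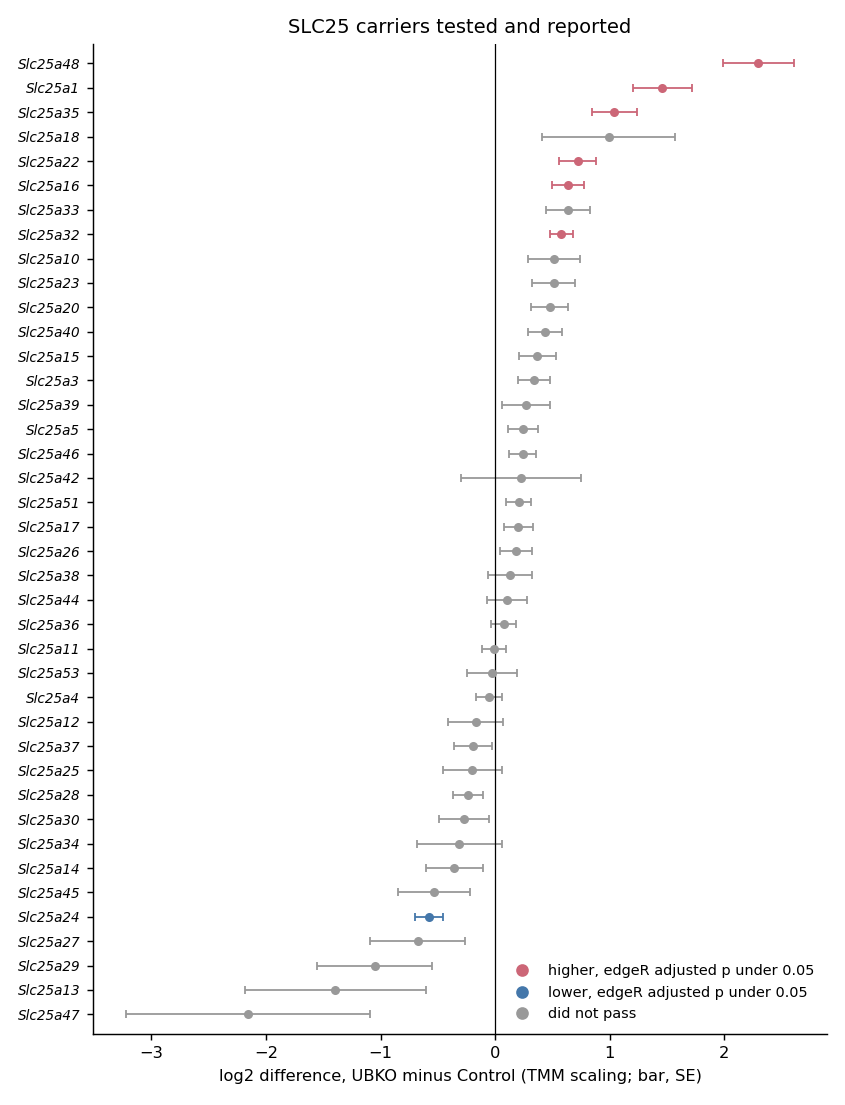
Log2 difference (UBKO minus Control, x axis) with its SE for the carriers tested and reported, ordered by size, from all 9 libraries with TMM scaling. Slc25a48 and Slc25a1 stand highest at 2.30 and 1.46, and Slc25a24 is the member called lower, at -0.58.

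Library totals lay between 15308480 and 17632709 gene counts. Ctnnb1 had 276 to 360 CPM in the Control libraries and 180, 210 and 199 CPM in UBKO replicates 1, 2 and 4. In the library labelled UBKO replicate 3 it had 307 CPM, within the Control range. With all libraries its log2 difference of -0.48 did not pass (edgeR adjusted p = 0.0976). Epididymis markers took 2.3% and 2.04% of all counts in Control replicates 1 and 2, and their summed FPKM was at most 0.473 in each of the other 7 libraries. Of 12 adipocyte markers 3 rose and 0 fell, at a median of 0.49 on the log2 scale (0.23 without Control replicates 1 and 2), and of 13 macrophage markers 12 fell, with a median of -2.37 and summed levels of 531 to 1425 FPKM in Control and 126 to 215 FPKM in UBKO libraries. The part of these shifts in the carrier results below was not tested, and in whole tissue fewer cells of a type and less RNA per cell cannot be told apart. Without Control replicates 1 and 2, 5 carriers were higher (Slc25a1, Slc25a22, Slc25a32, Slc25a35 and Slc25a48) and Slc25a24 was lower, against 1.5% of all genes higher and 4.9% lower, and the carriers' median was 0.11. With UBKO replicate 2 left out as well, 7 carriers were higher (the 6 and Slc25a33) and Slc25a13 lower, against 2.63% and 5.59% of all genes. Without the library labelled UBKO replicate 3, the carriers called were those of the fit with all libraries, less Slc25a22. Of all genes, 152 were then higher and 604 lower, against 626 and 1219 with all libraries.

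Promoter windows of 300 bases (250 before to 50 after the start site) were found in RefSeq for 36 of the 46 members, 46 windows in all, on GRCm38.p6, the assembly behind mm10. The windows below belong to the citrate carrier Slc25a1, which rose, to the dicarboxylate carrier Slc25a10, which was next to it in level and did not pass, to Slc25a48, which had the largest log2 difference of the 41 tested, to Slc25a24, which fell, and to Slc25a22, which rose and has 3 windows, of which the one with a TCF/LEF match is shown. They are written 5′ to 3′ on the strand of the gene, and capitals mark matches to the E-box CACGTG, the CCAAT box CCAAT or the TCF/LEF motif CTTTGAT on either strand.
Slc25a1, chr16:17928170-17928469, minus strand: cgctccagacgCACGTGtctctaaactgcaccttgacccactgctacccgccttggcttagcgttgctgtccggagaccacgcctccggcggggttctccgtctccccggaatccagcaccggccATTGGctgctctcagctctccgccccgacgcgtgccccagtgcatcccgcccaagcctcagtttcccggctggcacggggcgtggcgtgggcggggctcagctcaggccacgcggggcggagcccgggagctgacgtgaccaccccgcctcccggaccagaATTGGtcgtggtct
Slc25a10, chr11:120491587-120491886, plus strand: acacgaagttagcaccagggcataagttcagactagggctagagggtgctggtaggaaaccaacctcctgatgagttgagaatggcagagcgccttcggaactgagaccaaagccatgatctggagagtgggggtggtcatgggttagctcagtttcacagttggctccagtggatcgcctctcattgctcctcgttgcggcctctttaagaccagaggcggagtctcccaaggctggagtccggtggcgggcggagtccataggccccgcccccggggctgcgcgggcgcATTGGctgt
Slc25a48, chr13:56438105-56438404, plus strand: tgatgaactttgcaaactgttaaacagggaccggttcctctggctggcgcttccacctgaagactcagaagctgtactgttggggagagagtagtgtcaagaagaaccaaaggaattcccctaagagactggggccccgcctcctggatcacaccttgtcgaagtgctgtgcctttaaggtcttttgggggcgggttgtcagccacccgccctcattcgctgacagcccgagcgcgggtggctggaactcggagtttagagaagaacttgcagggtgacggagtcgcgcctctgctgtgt
Slc25a24, chr3:109122899-109123198, plus strand: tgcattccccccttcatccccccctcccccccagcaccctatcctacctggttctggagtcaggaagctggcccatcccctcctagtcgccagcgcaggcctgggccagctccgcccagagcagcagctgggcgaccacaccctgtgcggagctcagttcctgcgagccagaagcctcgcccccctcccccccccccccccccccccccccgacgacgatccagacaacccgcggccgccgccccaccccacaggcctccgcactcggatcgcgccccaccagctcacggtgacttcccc
Slc25a22, chr7:141434545-141434844, minus strand: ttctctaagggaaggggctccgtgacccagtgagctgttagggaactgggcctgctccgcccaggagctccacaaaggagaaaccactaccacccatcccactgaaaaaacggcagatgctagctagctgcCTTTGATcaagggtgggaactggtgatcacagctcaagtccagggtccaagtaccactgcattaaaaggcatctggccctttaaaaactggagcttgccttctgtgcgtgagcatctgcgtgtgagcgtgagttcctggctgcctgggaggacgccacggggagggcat

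The Slc25a1 window held an E-box whose first base lies at position -239 and CCAAT boxes at positions -125 and 37, counted from the start site. An E-box was present in 8 of the 46 carrier windows, of 7 members, and in 7.15% of 32851 promoter windows of the same length. A CCAAT box was present in 22 carrier windows, of 19 members, and in 37.4% of all windows. Windows of 1 member can overlap and hold the same match, as for the E-box of Slc25a14, so windows are not separate units. The TCF/LEF motif, bound by the partners of beta-catenin, was found in 3 carrier windows, of Slc25a22, Slc25a28 and Slc25a43, and in 3.73% of all windows. The sterol regulatory element TCACNCCAC was found for Slc25a18, the ERR element AAGGTCA for Slc25a34 and the cAMP response element TGACGTCA for Slc25a25 and Slc25a36, with 1.24%, 4.72% and 1.79% of all windows holding them. The most frequent match was the GC box GGGCGG, in 38 of 46 carrier windows, of 30 members, and in 35.7% of all windows. The carrier windows had a median of 15 CpG dinucleotides, and all windows a median of 7. Matches on both strands were counted, no motif was allowed a mismatch, and a match describes letters in the window, not binding.

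Of the carriers of di- and tricarboxylates, 1 of 3 tested rose and 0 fell. Slc25a1, the citrate carrier, whose exported citrate is the source of cytosolic acetyl-CoA, had 364, 587, 961, 894 and 643 CPM in Control replicates 1 to 5 and 2026, 1672, 1957 and 1942 CPM in UBKO replicates 1 to 4. Every UBKO library lay above every Control, and the UBKO libraries were closer to each other than the Controls were. The 4 UBKO libraries averaged 1899 ± 156 CPM (SD, n = 4) and the Controls 690 ± 242 CPM (SD, n = 5), a log2 difference of 1.46 (SE 0.26, edgeR adjusted p = 0.00795). Slc25a1 (mm10 chromosome 16, 17925223 to 17928219) passed in all 9 fits that left out 1 library, and its log2 difference was 1.18 without Control replicates 1 and 2 and 1.12 with scaling by total counts.

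Slc25a10, the dicarboxylate carrier, which exchanges malate and succinate for phosphate, had 502, 689, 1058, 993 and 752 CPM in Control replicates 1 to 5 and 1249, 878, 1285 and 1153 CPM in UBKO replicates 1 to 4. The groups overlapped through UBKO replicate 2, and the log2 difference of 0.51 (SE 0.22) did not pass (edgeR adjusted p = 0.163). It was 0.28 without Control replicates 1 and 2 and 0.16 with scaling by total counts. Slc25a11, the oxoglutarate carrier of the malate-aspartate shuttle, had 101 to 131 CPM in Control libraries and 102 to 125 CPM in UBKO ones, with a log2 difference of -0.006 (SE 0.11, edgeR adjusted p = 0.98). With scaling by total counts its log2 difference was -0.40 and was called lower (edgeR adjusted p = 0.0449), near the -0.39 of the median gene. Its exons overlap those of Rnf167 on the other strand, which held 23.2% as many counts, so its level is uncertain. The fourth member, Slc25a21, the oxodicarboxylate carrier of lysine and tryptophan breakdown, was too low to test and is described with the uneven members.

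**Figure D2:**
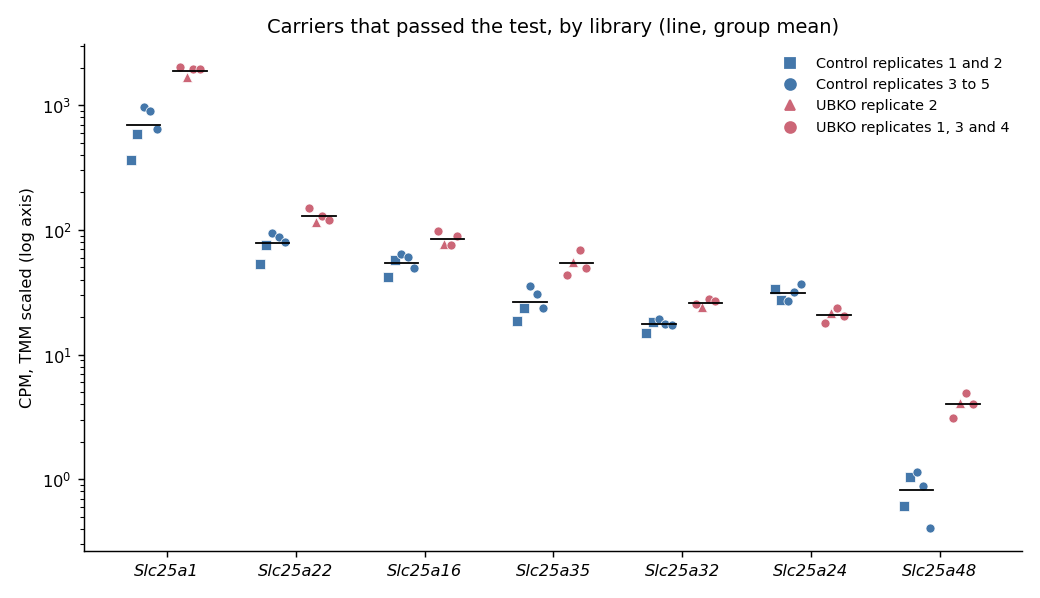
CPM with TMM scaling (log axis) of the 7 carriers that passed the test, 1 point per library, with a line at each group mean. In the 6 that rose every UBKO point lies above every Control point, and in Slc25a24 every UBKO point lies below.

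The ratio of Slc25a1 to Slc25a10 within a library does not depend on how libraries are scaled. In FPKM plus 0.1 it was 0.987 to 1.23 in Control and 2.07 to 2.59 in UBKO libraries, with no overlap. The mean log2 ratio rose from 0.20 ± 0.13 (SD, n = 5) to 1.19 ± 0.14 (SD, n = 4), a 1.98-fold difference. The exact two-sided permutation test gave p = 0.0159, the smallest it can give with 5 against 4 libraries, and 0.127 after adjustment over the 8 ratios compared, a threshold that 1 ratio alone cannot pass. Acly, the enzyme that splits the exported citrate, rose as well, averaging 741 ± 354 CPM in the 5 Controls and 2609 ± 1486 CPM (SD) in the 4 UBKO libraries, with an edgeR adjusted p of 0.0306 (0.115 without Control replicates 1 and 2). The Slc25a1 to Acly ratio spanned 1.67 to 4.24 in Control and 0.937 to 3.14 in UBKO libraries and did not pass (exact permutation p = 0.603, adjusted p = 0.724 over 6 ratios to enzymes, which were chosen after the values were seen).

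Carriers of adenine nucleotides and phosphate supply the ATP synthase with its substrates and export its product. None of the adenine nucleotide translocases or the phosphate carrier passed in the fit of all 9 libraries with TMM scaling. Slc25a3, the phosphate carrier, had 347, 430, 491, 480 and 474 CPM in Control replicates 1 to 5 and 630, 466, 606 and 554 CPM in UBKO replicates 1 to 4, with overlapping groups (log2 difference 0.34, SE 0.14, edgeR adjusted p = 0.143). Slc25a4, the translocase of heart and muscle type, had 238, 212, 248, 268 and 216 CPM in Control libraries and 236, 193, 246 and 238 CPM in UBKO ones. The groups overlapped over most of their range (log2 difference -0.05, SE 0.11, edgeR adjusted p = 0.818). With scaling by total counts Slc25a4 was called lower, at a log2 difference of -0.44 (edgeR adjusted p = 0.0158), again near the shift of the median gene. Slc25a5, the broadly expressed translocase, had 319, 364, 408, 442 and 409 CPM in Control libraries and 509, 387, 458 and 488 CPM in UBKO ones (log2 difference 0.25, SE 0.13, edgeR adjusted p = 0.247; -0.13 with scaling by total counts). Processed copies of Slc25a5 could share its reads. The copy named for it in the deposited table, Slc25a5-ps, held 60 counts over all libraries, and copies under other symbols are not covered by this count.

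Atp5b, the catalytic beta subunit of the ATP synthase, rose, with a log2 difference of 0.88 (SE 0.22, edgeR adjusted p = 0.0341; 0.63 and adjusted p = 0.0537 without Control replicates 1 and 2). Relative to it each of these carriers stood lower in every UBKO library than in any Control. The Slc25a4 to Atp5b ratio was 0.287 to 0.603 in Control and 0.186 to 0.209 in UBKO libraries, 0.511-fold. Slc25a5 to Atp5b went from 0.427 to 0.734 in Control down to 0.348 to 0.38 in UBKO libraries, 0.629-fold. Slc25a3 to Atp5b went from 0.184 to 0.285 in Control down to 0.154 to 0.164 in UBKO libraries, 0.672-fold. For all 3 the exact permutation test gave p = 0.0159, adjusted over the 6 ratios to 0.0317. The 3 share Atp5b, so they are not separate tests. The ratios were chosen after the values were seen, with a denominator that had risen, so lower ratios follow in part from that choice. Atp5b is also a single subunit and does not stand for the whole ATP synthase. Without Control replicates 1 and 2 the log2 differences of the ratios were -0.74, -0.51 and -0.43, beside -0.97, -0.67 and -0.57 with all libraries, and 3 against 4 libraries cannot give an exact p under 0.0571. Macrophage markers fell in the same libraries, and their part in these ratios was not tested.

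Between the translocases, the Slc25a4 to Slc25a5 ratio was 0.583 to 0.821 in Control and 0.512 to 0.593 in UBKO libraries. The groups overlapped slightly, and the 0.813-fold difference did not pass (exact permutation p = 0.0317, adjusted p = 0.127 over 8 ratios). Slc25a3 to Slc25a5 was steadier, at 0.388 to 0.43 in Control and 0.405 to 0.472 in UBKO libraries (exact permutation p = 0.143, adjusted p = 0.229). The germ cell translocase Slc25a31 was not tested for want of counts. It had between 4 and 14 counts in each Control library, 44 in all, and 1 count over the UBKO libraries, a ratio of 0.0272 relative to library totals (exact 95% interval 0.000674 to 0.16, for counting error alone). Without the filter on low counts it was called lower (edgeR adjusted p = 0.0314), and in the authors' deposited table its q-value was 0.00344.

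**Figure D3:**
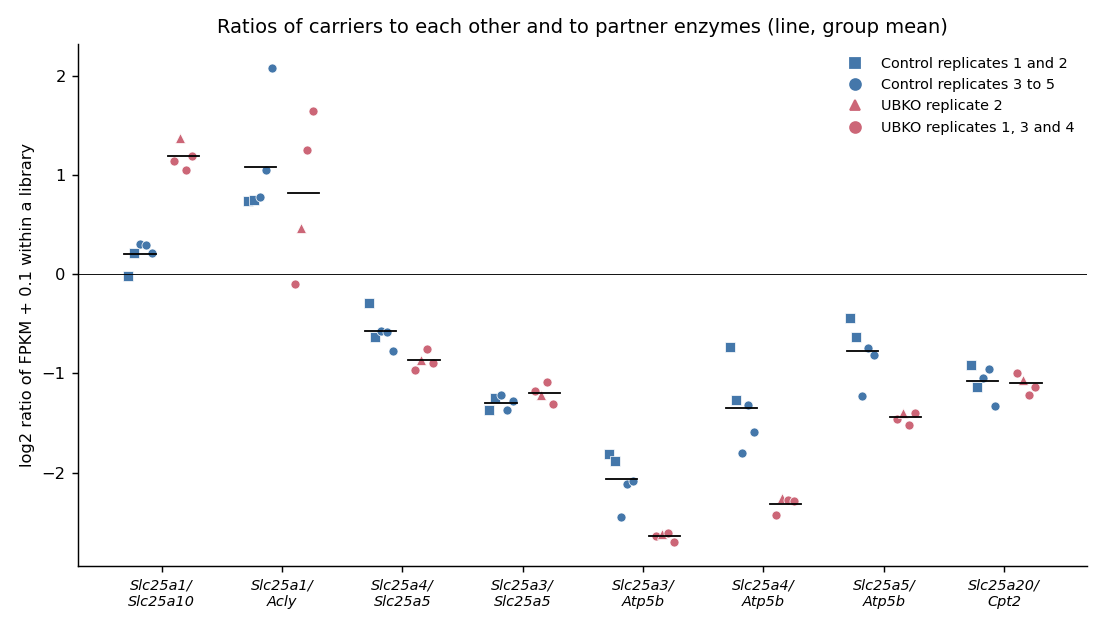
Log2 ratio of FPKM plus 0.1 of 2 genes within each library, for 8 pairs, 1 point per library, with a line at each group mean. The groups do not overlap for Slc25a1/Slc25a10, where UBKO is higher, or for Slc25a3, Slc25a4 and Slc25a5 over Atp5b, where UBKO is lower.

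The ATP-Mg/phosphate carriers, which calcium regulates and which set the matrix pool of adenine nucleotides, did not move together. Slc25a24 had 33.5, 27.4, 27.0, 31.6 and 36.6 CPM in Control replicates 1 to 5 and 18.04, 21.6, 23.4 and 20.6 CPM in UBKO replicates 1 to 4. All UBKO libraries were below all Controls, and Slc25a24 fell, with a log2 difference of -0.58 (SE 0.12, edgeR adjusted p = 0.0182). Its call ended without UBKO replicate 1 (edgeR adjusted p = 0.0594), without UBKO replicate 4 (0.0625), and without Control replicates 1 and 2 and UBKO replicate 2 together (0.0605), with log2 differences of -0.51, -0.57 and -0.60. In the authors' deposited table its q-value was 0.172. Slc25a23 had 37.9 to 77.0 CPM in Control libraries and 70.3 to 85.7 CPM in UBKO ones (log2 difference 0.51, edgeR adjusted p = 0.112), and it was called higher without Control replicate 3 (0.64, edgeR adjusted p = 0.0366). Slc25a25 had 19.3, 30.3, 17.1, 30.0 and 23.9 CPM in Control libraries and 13.9, 16.4, 23.5 and 30.3 CPM in UBKO ones. UBKO replicates 1 and 2 lay below every Control and the other 2 within the Control range (log2 difference -0.20, SE 0.26, edgeR adjusted p = 0.662), and Naif1 on the other strand overlaps it with 25.7% as many counts. The Slc25a25 to Slc25a24 ratio did not pass (exact permutation p = 0.222, adjusted p = 0.296 over 8 ratios).

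The pyrimidine nucleotide carriers are needed for mitochondrial RNA and DNA synthesis. Slc25a33 went from 12.6 to 23.9 CPM in Control to 22.3 to 34.4 CPM in UBKO libraries and did not pass (log2 difference 0.64, edgeR adjusted p = 0.0642). Without UBKO replicate 2 it was called (log2 difference 0.75, edgeR adjusted p = 0.0453), as it was by DESeq2's Wald test on all libraries (adjusted p = 0.0252). Slc25a36 had 46.3 to 62.4 CPM in Control libraries and 54.9 to 67.1 CPM in UBKO ones (log2 difference 0.07, edgeR adjusted p = 0.704). Their ratio differed 1.48-fold and did not pass (exact permutation p = 0.0952, adjusted p = 0.19 over 8 ratios).

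Of 9 amino acid and acyl group carriers tested, 1 rose and 0 fell. Slc25a22, a glutamate carrier, had 53.8, 75.6, 94.9, 88.1 and 80.1 CPM in Control replicates 1 to 5 and 151, 116, 130 and 121 CPM in UBKO replicates 1 to 4. No UBKO library reached down to the Controls, and Slc25a22 rose, with a log2 difference of 0.72 (SE 0.16, edgeR adjusted p = 0.0207). Leaving out UBKO replicate 1, the library labelled UBKO replicate 3 or UBKO replicate 4 ended the call (edgeR adjusted p = 0.0673, 0.0643 and 0.0549), at log2 differences of 0.64, 0.72 and 0.76, and with scaling by total counts its log2 difference was 0.36. Slc25a18, the other glutamate carrier, averaged 0.534 CPM over Controls and 1.07 CPM over UBKO libraries and overlaps the far more abundant Atp6v1e1 on the other strand, so its level is uncertain.

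Slc25a20, the carnitine-acylcarnitine carrier that brings long-chain acyl groups to beta-oxidation, had 101, 123, 159, 169 and 161 CPM in Control libraries and 225, 181, 190 and 198 CPM in UBKO ones. It lay higher in every UBKO library than in any Control, but with a log2 difference of 0.48 (SE 0.16) it did not pass edgeR's test (adjusted p = 0.0834), while DESeq2's Wald test called it (adjusted p = 0.0371). Its log2 difference was 0.27 without Control replicates 1 and 2 (edgeR adjusted p = 0.171) and 0.12 with scaling by total counts. Groups without overlap in this direction were seen for 7 carriers tested, the 6 called and Slc25a20, and for 6.41% of all genes tested, and in the other direction for Slc25a24 alone of the 41 and for 9.11% of all genes. Its ratio to Cpt2, the next enzyme of the carnitine shuttle, was 0.398 to 0.53 in Control and 0.432 to 0.503 in UBKO libraries (exact permutation p = 0.81, adjusted p = 0.81 over 6 ratios). Cpt1a, which makes the acylcarnitine, fell by 0.99 (edgeR adjusted p = 0.0174).

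Slc25a12 and Slc25a13, the aspartate-glutamate carriers aralar and citrin of the malate-aspartate shuttle, were low in this fat. Slc25a12 had 15.4, 18.3, 12.1, 11.5 and 12.1 CPM in Control libraries and 7.94, 18.1, 12.7 and 10.6 CPM in UBKO ones, with overlapping groups (log2 difference -0.17, SE 0.24, edgeR adjusted p = 0.697). Slc25a13 had 12.3, 10.2, 1.86, 4.72 and 5.82 CPM in Control replicates 1 to 5 and 0.781, 7.83, 1.22 and 0.765 CPM in UBKO replicates 1 to 4. UBKO replicate 2 stood within the Control range and the other UBKO libraries below every Control, and the log2 difference of -1.39 (SE 0.79) did not pass (edgeR adjusted p = 0.28). Without UBKO replicate 2 it was -2.92 and was called (edgeR adjusted p = 0.0227), and without Control replicates 1 and 2 and UBKO replicate 2 it was -2.15 (edgeR adjusted p = 0.0346). The Slc25a12 to Slc25a13 ratio was 0.792 to 3.39 in Control and 1.42 to 5.13 in UBKO libraries (exact permutation p = 0.0476, adjusted p = 0.127 over 8 ratios).

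Slc25a44, the carrier of branched-chain amino acids, had 36.9, 61.6, 59.0, 74.9 and 56.9 CPM in Control libraries and 58.7, 55.6, 67.5 and 66.9 CPM in UBKO ones. The groups overlapped, with a log2 difference of 0.10 (SE 0.18, edgeR adjusted p = 0.748), which was -0.05 without Control replicates 1 and 2. The ornithine carrier Slc25a15 and the glycine carrier Slc25a38 had log2 differences of 0.37 and 0.13 (edgeR adjusted p = 0.17 and 0.713), from 18.4 ± 3.78 and 11.5 ± 2.99 CPM (SD, n = 5) in Control.

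Of 7 cofactor carriers tested, 2 rose and 0 fell. Slc25a32, which imports FAD and folate, had 14.9, 18.4, 19.4, 17.4 and 17.3 CPM in Control replicates 1 to 5 and 25.3, 24.1, 28.2 and 26.8 CPM in UBKO replicates 1 to 4. The gap between the groups was wider than the spread within either, and Slc25a32 rose, with a log2 difference of 0.58 (SE 0.10, edgeR adjusted p = 0.00875), passing in all 9 fits that left out 1 library. It did not pass with limma on log2(FPKM + 1) (log2 difference 0.16, adjusted p = 0.131). The added 1 shrinks that difference, as Slc25a32 averaged 2.56 FPKM. In the authors' deposited table Slc25a32 had a q-value of 0.154, and the log2 ratio of mean FPKM given beside it was 0.22. Slc25a16, linked through its yeast relative to the import of coenzyme A, had 41.8, 57.5, 64.2, 60.1 and 49.7 CPM in Control libraries and 98.6, 77.0, 75.9 and 88.7 CPM in UBKO ones. It rose by 0.64 (SE 0.14, edgeR adjusted p = 0.0202), without overlap. With scaling by total counts neither passed, with log2 differences of 0.20 for Slc25a32 and 0.27 for Slc25a16 (edgeR adjusted p = 0.183 and 0.109). The call of Slc25a16 also ended without Control replicates 1 and 2 (log2 difference 0.54, edgeR adjusted p = 0.0522), without UBKO replicate 1 (0.56, adjusted p = 0.0642) and without UBKO replicate 4 (0.62, adjusted p = 0.0664), as it did with limma (0.27, adjusted p = 0.0789). In the authors' deposited table Slc25a16 had a q-value of 0.0833.

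Among the other cofactor carriers, Slc25a51, which imports NAD, averaged 142 ± 14.2 CPM over Controls (SD, n = 5) and 164 ± 18.1 CPM over UBKO libraries (SD, n = 4) (edgeR adjusted p = 0.267). The peroxisomal carrier Slc25a17 and the S-adenosylmethionine carrier Slc25a26 had log2 differences of 0.20 and 0.18 and did not pass (edgeR adjusted p = 0.332 and 0.421). Lrig1, on the other strand, overlaps Slc25a26 with 300% as many counts, so the level of Slc25a26 is uncertain. Slc25a42, a coenzyme A carrier, had 21.7, 32.4, 34.2, 24.3 and 27.4 CPM in Control replicates 1 to 5 and 46.9, 43.9, 3.73 and 36.6 CPM in UBKO replicates 1 to 4. UBKO replicates 1, 2 and 4 exceeded all Controls, but the library labelled UBKO replicate 3 lay far below all others. The log2 difference was 0.23 with all libraries (SE 0.52, edgeR adjusted p = 0.818) and 0.60 without that library, which did not pass either (edgeR adjusted p = 0.0794).

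None of the 4 glutathione and iron carriers passed in the fit of all 9 libraries with TMM scaling. Slc25a39, a glutathione importer, was the sixth most abundant carrier, averaging 201 ± 62.1 CPM over Controls (SD, n = 5) and 242 ± 17.4 CPM over UBKO libraries (SD, n = 4) (edgeR adjusted p = 0.443). Its relative Slc25a40 had 8.12 to 9.87 CPM in Control libraries and 9.13 to 13.4 CPM in UBKO ones (log2 difference 0.44, edgeR adjusted p = 0.083). Slc25a40 was called higher without UBKO replicate 2 (0.55, edgeR adjusted p = 0.0293) and by DESeq2's Wald test (adjusted p = 0.0488), while with scaling by total counts its log2 difference was 0.04. The ratio between them was 27.8 to 68.4 in Control and 37.8 to 46.7 in UBKO libraries (exact permutation p = 0.73, adjusted p = 0.73). Slc25a37, mitoferrin-1, which imports iron, had 28.3, 19.6, 18.2, 15.4 and 19.7 CPM in Control libraries and 17.1, 18.8, 18.6 and 16.4 CPM in UBKO ones, with overlapping groups (log2 difference -0.19, SE 0.17, edgeR adjusted p = 0.482). Slc25a28, mitoferrin-2, had 27.0 to 39.2 CPM in Control libraries and 24.4 to 33.8 CPM in UBKO ones (log2 difference -0.24, edgeR adjusted p = 0.282), and with scaling by total counts it was called lower. The mitoferrin ratio differed 1.06-fold (exact permutation p = 0.603, adjusted p = 0.689 over 8 ratios).

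The carriers most like the uncoupling proteins in sequence, Slc25a14, Slc25a27 and Slc25a30, had log2 differences of -0.36, -0.67 and -0.27 and did not pass (edgeR adjusted p = 0.386, 0.318 and 0.457). The uncoupling proteins themselves, family members outside the symbol rule, did not move alike. Ucp1, the proton channel of brown and beige adipocytes, had 2.21, 1.10, 1.38, 2.02 and 1.86 CPM in Control libraries and 8.27, 4.01, 2.65 and 3.27 CPM in UBKO ones (log2 difference 1.41, edgeR adjusted p = 0.0365; 1.36 and 0.108 without Control replicates 1 and 2). Ucp2, abundant in macrophages, had 218 to 434 CPM in Control libraries and 99.5 to 133 CPM in UBKO ones and fell by 1.47 (edgeR adjusted p = 0.0029), beside the fall of 12 of 13 macrophage markers. Ucp3 had a log2 difference of 0.44 (edgeR adjusted p = 0.164), and Mtch1 and Mtch2, carrier-like proteins of the outer membrane, had -0.24 and 0.42 (edgeR adjusted p = 0.319 and 0.148).

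Of 7 tested members with other or unassigned roles, 2 rose and 0 fell. Slc25a48, a choline carrier, had 0.613, 1.05, 1.14, 0.882 and 0.408 CPM in Control replicates 1 to 5 and 3.13, 4.08, 4.95 and 4.03 CPM in UBKO replicates 1 to 4. The lowest UBKO library stood above the highest Control, and Slc25a48 rose, with a log2 difference of 2.30 (SE 0.31, edgeR adjusted p = 0.00264), 4.92-fold, from a low level. It passed in all 9 fits that left out 1 library. Slc25a35, an orphan carrier, had 18.8, 23.9, 35.4, 30.6 and 23.6 CPM in Control libraries and 43.4, 55.3, 68.7 and 49.9 CPM in UBKO ones. It rose by 1.04 (SE 0.20, edgeR adjusted p = 0.0109), without overlap and in all 9 fits, and Rangrf on the other strand overlaps it with 6.64% as many counts. With scaling by total counts the log2 differences were 1.93 for Slc25a48 and 0.68 for Slc25a35, and both passed (edgeR adjusted p = 0.00332 and 0.0125). Slc25a46, an outer membrane protein of mitochondrial dynamics, Slc25a34, Slc25a45 and Slc25a53 had log2 differences between -0.53 and 0.24 and did not pass.

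A few members differed widely between libraries of 1 group. Slc25a47 had 17.7 and 18.2 CPM in Control replicates 1 and 2 and 0.291 to 2.85 CPM in the other 7 libraries. Slc25a29, a carrier of basic amino acids, had 21.7 and 23.0 CPM in the same 2 Controls and 4.53 to 8.98 CPM elsewhere. These are the libraries with epididymis markers at 2.3% and 2.04% of counts. Without them the log2 differences went from -2.16 to 0.60 for Slc25a47 and from -1.05 to -0.05 for Slc25a29, none of which passed. The 2 genes are neighbours, with 163 bases between them on chromosome 12 by the deposited gene bounds. Their RefSeq promoter windows lie further apart, at 108835827 to 108836126 for Slc25a29 and 108850879 to 108851178 for Slc25a47.

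Slc25a21 and Slc25a13 were high in those Controls and in UBKO replicate 2. Slc25a21 had 120 counts at most in a Control library and 41 counts in UBKO replicate 2, against 0 to 5 counts in each of the other 6 libraries. Slc25a12 and Slc25a30 were also highest in Control replicates 1 and 2 and UBKO replicate 2, by less. Slc25a12 had 15.4, 18.3 and 18.1 CPM there and 7.94 to 12.7 CPM in the other 6 libraries. Slc25a30 had 30.1, 28.0 and 25.8 CPM there and 15.1 to 22.1 CPM in the other 6. Epithelial markers summed to 303 and 299 FPKM in Control replicates 1 and 2 and to 115 FPKM in UBKO replicate 2, against 3.65 to 21.2 FPKM in the other 6 libraries. The part of epithelial RNA in these carrier levels was not tested. The remaining untested members were Slc25a2, with 6 counts in Control and 5 in UBKO libraries together, Slc25a43, with 29 and 10, and Slc25a54, with 0 and 3.

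**Figure D4:**
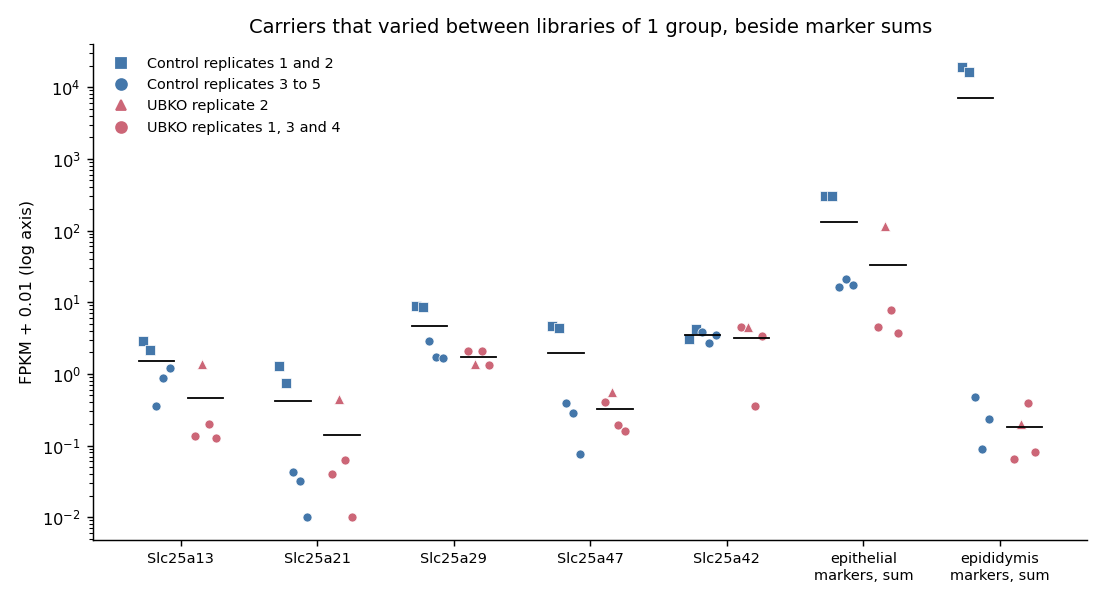
FPKM plus 0.01 (log axis) of 5 carriers that varied between libraries of a group, beside the summed FPKM of epithelial and epididymis markers, 1 point per library with a line at each group mean. Squares, Control replicates 1 and 2, stand apart for Slc25a29 and Slc25a47, the triangle of UBKO replicate 2 joins them for Slc25a13 and Slc25a21, and 1 UBKO circle lies low for Slc25a42.

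Per length, a few members made up most of the carrier mRNA. Slc25a1, Slc25a10, Slc25a5, Slc25a4 and Slc25a3 averaged 197 ± 52.3, 168 ± 32.8, 142 ± 7.67, 96.1 ± 8.86 and 58.0 ± 4.05 FPKM in Control libraries (SD, n = 5), with the mean of Slc25a10 within 1 SD of that of Slc25a1. In UBKO libraries they averaged 433 ± 24.5, 191 ± 24.6, 132 ± 11.8, 72.3 ± 4.49 and 57.7 ± 6.19 FPKM (SD, n = 4), with Slc25a1 apart from the rest. Slc25a5 led in Control replicate 1 and Slc25a1 in the other 8 libraries. The 6 most abundant carriers of each library held 71.2% to 77.6% of the summed carrier FPKM in Control and 79.4% to 81.4% in UBKO libraries.

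The share of Slc25a1 in the carrier pool was 14.9%, 19.9%, 25.3%, 23.4% and 20.2% in Control replicates 1 to 5 and 37.8%, 38.9%, 37.5% and 38.0% in UBKO replicates 1 to 4. The groups were separate and the UBKO libraries nearly equal. Slc25a4 held 10.4% ± 1.79 (SD, n = 5) of the pool in Control and 6.36% ± 0.209 (SD, n = 4) in UBKO libraries, and Slc25a5 15.2% ± 1.24 and 11.7% ± 0.48. A larger Slc25a1 share by itself lowers the shares of the others. All carriers together, Slc25a1 included, made up 0.26% to 0.357% of the FPKM of nuclear genes in Control and 0.368% to 0.427% in UBKO libraries. The lowest values, 0.26% and 0.287%, were those of Control replicates 1 and 2, whose FPKM also holds the epididymis markers. The pool without Slc25a1 was not compared, so this does not show that the other carriers rose together. By role, the carboxylate carriers with Slc25a1 held 286.8 to 491.4 FPKM in Control and 598.6 to 708.4 FPKM in UBKO libraries. The nucleotide and phosphate carriers held 321.2 to 344.8 FPKM in Control and 268.5 to 320.8 FPKM in UBKO libraries. In each other role the groups overlapped. FPKM rests on scaling by library total, so these sums depend on that scaling. The median log2 difference of the nucleotide and phosphate carriers tested was 0.16 with TMM and -0.225 with total counts. These shares and sums over the members were not tested.

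**Figure D5:**
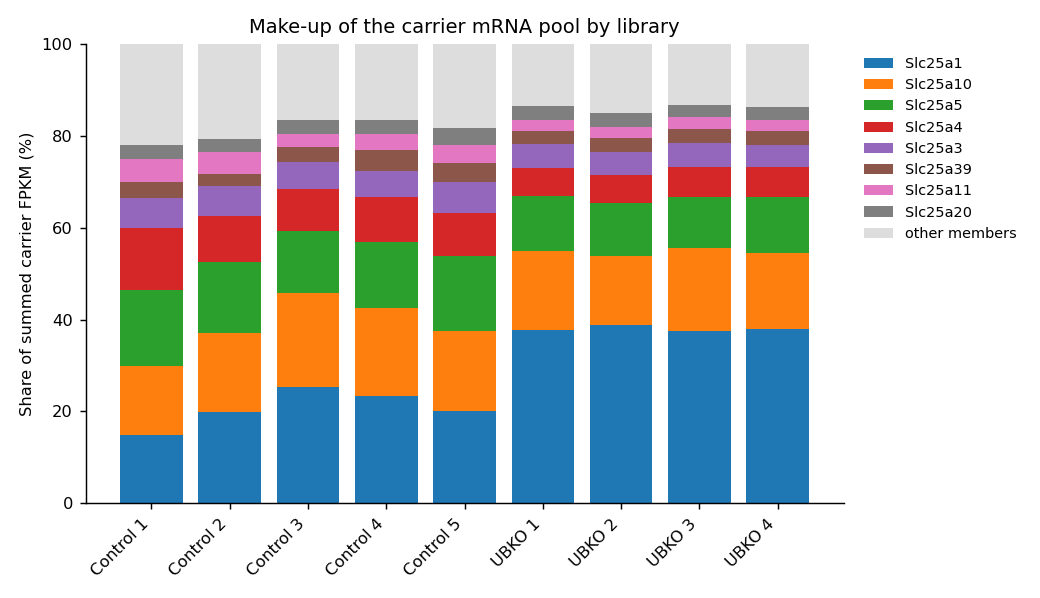
Share of the summed FPKM of all 46 carriers (y axis, percent) taken by the 8 most abundant members in each library. The Slc25a1 segment spans 14.9% to 25.3% in the Control bars and 37.5% to 38.9% in the UBKO bars.

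Genes that work beside the carriers were counted in the same fit. Of 16 other mitochondrial transport genes, 4 rose and 1 fell. Mpc1 and Mpc2, the subunits of the pyruvate carrier, rose by 1.20 and 0.87 (edgeR adjusted p = 0.0327 and 0.021; 0.114 and 0.0537 without Control replicates 1 and 2). Vdac3, a pore of the outer membrane, rose by 0.45 (edgeR adjusted p = 0.0312; 0.108 without those Controls), and Sfxn3, of the sideroflexin family, fell by 0.69 (edgeR adjusted p = 0.0178; 0.0502 without them). Abcb10, an ATP-binding transporter of the inner membrane, rose by 0.40 (edgeR adjusted p = 0.0434) and passed without them too (0.43, edgeR adjusted p = 0.0363). Of 10 genes of the machinery that inserts carriers into the inner membrane, 1 rose and 0 fell. This was Timm29, of the TIM22 complex, at 0.42 (edgeR adjusted p = 0.0355; 0.0953 without Control replicates 1 and 2). Of 16 enzymes that use carried substrates, 4 rose and 2 fell, at a median of 0.72 on the log2 scale (0.44 without Control replicates 1 and 2 and 0.36 with scaling by total counts). Gpd2, of the glycerol phosphate shuttle, and Me1, which makes NADPH from malate, rose by 1.69 and 1.71 (edgeR adjusted p = 0.00958 and 0.0273), and Got1, of the malate-aspartate shuttle, fell by 0.86 (edgeR adjusted p = 0.0462, or 0.148 with Control replicates 1 and 2 left out). Among 110 nuclear genes tested under the KEGG oxidative phosphorylation term of the deposited annotation, 47 were higher and 4 lower, with a median log2 difference of 0.54, beside 6 and 1 of 41 carriers with a median of 0.18. Whether these lists differ from the carriers was not tested.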

How the data were processed

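RNA-seq libraries of epididymal white fat were grouped by the labels into 5 Control and 4 UBKO. The authors' deposited table gives raw read counts and FPKM per gene, per the file headers, and the authors' own comparison as a log2 ratio with a p-value and q-value. HISAT2, SAMtools 1.3.1, Cuffdiff and mm10 are named, without roles, per the submitters' processing notes, and the annotation release and strand setting are not given there. For each of 11102 well-covered genes FPKM was a constant multiple of counts over the library's total (coefficient of variation at most 9.2e-06).

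The test on counts was that of edgeR 4.0.16 under R 4.3.3 (TMM, filterByExpr, quasi-likelihood test, genotype only, two-sided, Benjamini-Hochberg over all genes). Ratios used FPKM plus 0.1 and exact permutation tests in scipy 1.17.1. Totals of 15308480 to 17632709 counts per library limit low members. Tested on simulated data for UBKO against Control over 15831 genes, 47% of 2-fold and 93% of 4-fold changes were recovered, with 7 false calls among 147. The changes were planted only in genes above a mean CPM that low members such as Slc25a48 do not reach, as many up as down. The simulated libraries held no epididymal or epithelial RNA of single libraries, so these rates need not hold for the real ones. No 2 libraries of a group agreed within sampling noise (lowest chi-square per degree of freedom 16.4).

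Alternatives were DESeq2 1.42.0 (size factors and Wald test), limma 3.58.1 on log2(FPKM + 1), total-count scaling, no filter, a replicate block and left-out libraries. Exon overlaps came from GENCODE release M21. Every member enters the counts, and a tested carrier that did not pass is not reported here. Called members and 13 set ones are given per library, and up to 3 called genes per direction of each companion list are named. Slc25a29, Slc25a33, Slc25a42, Slc25a47, Abcb10, the further settings of Slc25a23 and Slc25a40 and the 6 ratios to enzymes were added after their values were seen. The members and lists were chosen with earlier results of these data known. Of 11 epididymis markers 10 were found and 0 tested; of 4 striated muscle markers tested 0 rose and 1 fell, of 6 endothelial 2 rose and 0 fell, of 3 lymphocyte and of 6 epithelial markers 0 rose and 0 fell.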

Additional observations from a re-analysis of the deposited data

Results flagged for a closer look

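A sample far from the others of its group was looked for in 110 groups of values, and chance alone marks about 1 group in 20. In the Control libraries, the Slc25a1 to Slc25a10 log2 ratio was lowest in replicate 1, at -0.0196, with 0.72 of the group's range between it and its nearest neighbour. The Slc25a1 to Acly log2 ratio was highest in Control replicate 5, at 2.08, with 0.767 of the range. In the UBKO libraries, the Slc25a4 to Atp5b log2 ratio was lowest in replicate 1, at -2.43, with 0.835 of the range. Slc25a13 was highest in UBKO replicate 2, at 7.83 CPM, with 0.936 of the range, and that library also held 115 FPKM of summed epithelial markers against 3.65 to 7.73 FPKM in the other UBKO libraries; their part was not tested. Slc25a23 was lowest in UBKO replicate 2, at 70.3 CPM, with 0.909 of the range.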

How the results depend on the processing

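With 1 library left out in turn, 4 to 8 carriers were higher and 0 to 2 lower. The same fits called 152 to 954 of all genes higher and 604 to 1495 lower. The median log2 difference of the carriers ran from 0.101 to 0.232. limma on FPKM called 3 higher and 4 lower (277 and 3748 of all genes), scaling by total counts 4 lower (4482), and the absence of a low-count filter 2 lower (300 higher and 810 lower of all genes). The median was -0.186 in the authors' deposited table, -0.149 with limma and -0.189 with total counts, beside medians of all genes of -0.343, -0.26 and -0.393. Whether replicate numbers pair the samples could not be told. Correlations of deviations were -0.174, 0.508, 0.126 and 0.192, and 4 of 8 samples correlated best with their own number. With the replicate block 3 carriers were higher (Slc25a1, Slc25a35 and Slc25a48) and 0 lower. Slc25a16, Slc25a22, Slc25a32 and Slc25a24 were not called in that fit. Of all genes, 191 were higher and 556 lower with the block, against 626 and 1219 without it.

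The log2 differences of the authors' deposited table, limma on FPKM and total counts all rest on scaling by library total, without TMM. They are therefore not separate checks of a sign. The sign turned for 12 of 41 carriers in the authors' deposited table, 12 of 34 with limma and 12 of 41 with total counts. Among them, in that order, were Slc25a3 (-0.0078, -0.011, -0.033), Slc25a5 (-0.11, -0.11, -0.13), Slc25a44 (-0.24, -0.20, -0.26) and Slc25a42 (-0.10, -0.27, -0.13, and -0.048 with the block). Slc25a11 turned to 0.0086 with DESeq2 size factors, 0.0018 without the filter, 0.021 without Control replicates 1 and 2 and 0.11 without UBKO replicate 2 as well. Without Control replicates 1 and 2, Slc25a12 turned to 0.047, Slc25a44 to -0.047 and Slc25a47 to 0.60; without UBKO replicate 2 as well, Slc25a29 was 0.10, Slc25a47 0.30 and the log2 ratio of Slc25a39 to Slc25a40 -0.45. With 1 library left out, Slc25a4 ran from -0.086 to 0.024, Slc25a11 from -0.054 to 0.055, Slc25a29 from -1.24 to -0.71, Slc25a47 from -2.49 to -1.58, Slc25a44 from -0.0032 to 0.23, and the log2 ratios of Slc25a37 to Slc25a28 from -0.0024 to 0.157, Slc25a39 to Slc25a40 from -0.25 to 0.073, Slc25a20 to Cpt2 from -0.087 to 0.016 and Slc25a1 to Acly from -0.54 to 0.042. Why single members turned in the other settings was not tested.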

Other observations

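By the deposited gene bounds, 3 pairs of the 46 carriers lie within 100 kb of each other. Slc25a5 and Slc25a43 on chromosome X have 18449 bases between them. Slc25a24 and Slc25a54 on chromosome 3 have 6462 bases, and Slc25a29 and Slc25a47 on chromosome 12 have 163 bases. The ratio of Slc25a11 to Mdh2, which turns the malate it carries into oxaloacetate, was 0.207 to 0.456 in Control and 0.191 to 0.227 in UBKO libraries and did not pass (exact permutation p = 0.0635, adjusted p = 0.0952 over 6 ratios).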
